A study of Homo sapiens with 24 samples.

Results

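The genes described here are 54 androgen-response genes of prostate cells, covering exporters, metabolic enzymes, coregulators, kinases, receptors and proteins of the secretory pathway. They were taken by symbol from the platform annotation of an Illumina beadchip, and a probe was used where its detection p-value was under 0.05 on at least 3 of 24 arrays. Of the 54 genes, 51 had an annotated probe (91 probes), and 45 had at least 1 probe that passed (71 probes), out of 12895 genes on the array that did. ANKH, STEAP4, HPGD, BMPR1B, MAK and IQGAP2 had annotated probes but none that passed, and HOMER2, PGM3 and SORD have no annotated probe here. The expression of these 9 genes is therefore not analysed. A gene with several passing probes (19 of the 45) is represented by its brightest one.

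The cells were LREX', human prostate cancer cells able to grow under enzalutamide, an inhibitor of the androgen receptor, and known to carry high levels of the glucocorticoid receptor. All cultures were kept in steroid-depleted medium made with charcoal-stripped serum and then treated for 8 h, in 8 groups of 3 biological replicates with 1 array each. The groups were vehicle (DMSO), the androgen dihydrotestosterone (DHT) at 1 nM, the synthetic glucocorticoid dexamethasone (Dex) at 10 nM or 100 nM, enzalutamide at 10 µM, and enzalutamide together with DHT or with either dose of Dex; the labels give no enzalutamide dose for these combinations. The line is the only model measured, so replicates measure the spread between cultures of 1 line. Array medians ran from 59.4 to 69.5 signal units and 19463 to 21017 probes were detected per array, with correlations of 0.992 to 0.995 between arrays of a group. Of 6 listed luminal prostate markers, KRT8, KRT18, EPCAM, HOXB13 and FOLH1 were detected on all 24 arrays and the sixth is not analysed here; the basal keratins KRT5 and KRT14 and the endothelial genes PECAM1 and CDH5 were detected on none, while VWF and COL1A1 were detected on all 24. The other listed stromal genes, COL1A2 and DCN, were detected on 4 and 7 arrays. Of the neuroendocrine genes, INSM1 was detected on 16 arrays, CHGA on 1 and SYP on none. Of the immune genes, CD14 was detected on 10 arrays, PTPRC on 1 and CD3E on none. On bulk RNA, fewer cells with a transcript and less transcript per cell cannot be told apart.

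As background, the androgen receptor is a ligand-activated transcription factor that binds paired half-sites in DNA, mostly in enhancers away from promoters, and drives differentiated functions of the luminal prostate cell such as secretion, membrane transport and lipid and sugar metabolism. The glucocorticoid receptor belongs to the same receptor family and recognises closely related DNA elements, and it can occupy part of the androgen receptor's sites in prostate cancer cells. Enzalutamide competes with androgen for the androgen receptor and does not bind the glucocorticoid receptor with appreciable affinity. The 8 groups therefore allow each gene to be read under either hormone, with and without the androgen receptor inhibitor.

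DHT raised 18 of the 45 measured genes and lowered none, where 2.45% of all 12895 genes rose and 1.81% fell. ALDH1A3 (a retinaldehyde dehydrogenase), ELL2 (an elongation factor of RNA polymerase II), ABCC4 (an exporter of organic anions and cyclic nucleotides) and PTPN21 (a tyrosine phosphatase) rose at least 2-fold. Dex at 100 nM raised 12 genes and lowered 1 (background 2.88% higher, 2.19% lower), and Dex at 10 nM raised 9 and lowered 1 (background 1.36% higher, 0.838% lower). A call is a limma adjusted p under 0.05 with Benjamini-Hochberg adjustment over all 12895 genes, and ± gives the standard error of the log2 difference between groups of 3 arrays. The median change of the 45 genes was 0.27 on the log2 scale with DHT, 0.12 with Dex 10 nM and 0.15 with Dex 100 nM, beside -0.01 over all genes in each comparison. With DHT, 26 genes had all arrays above all vehicle arrays and 4 had all below (8.66% and 9.69% of all genes). These 3 comparisons share the vehicle arrays, so their counts are not independent of one another. AKAP12, AZGP1 and HERC3 were not detected on any vehicle array and could pass the filter only through other groups. Without these 3, left out after their values were seen, DHT raised 17 of 42, Dex 100 nM 11 and Dex 10 nM 8.

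**Figure D1:**
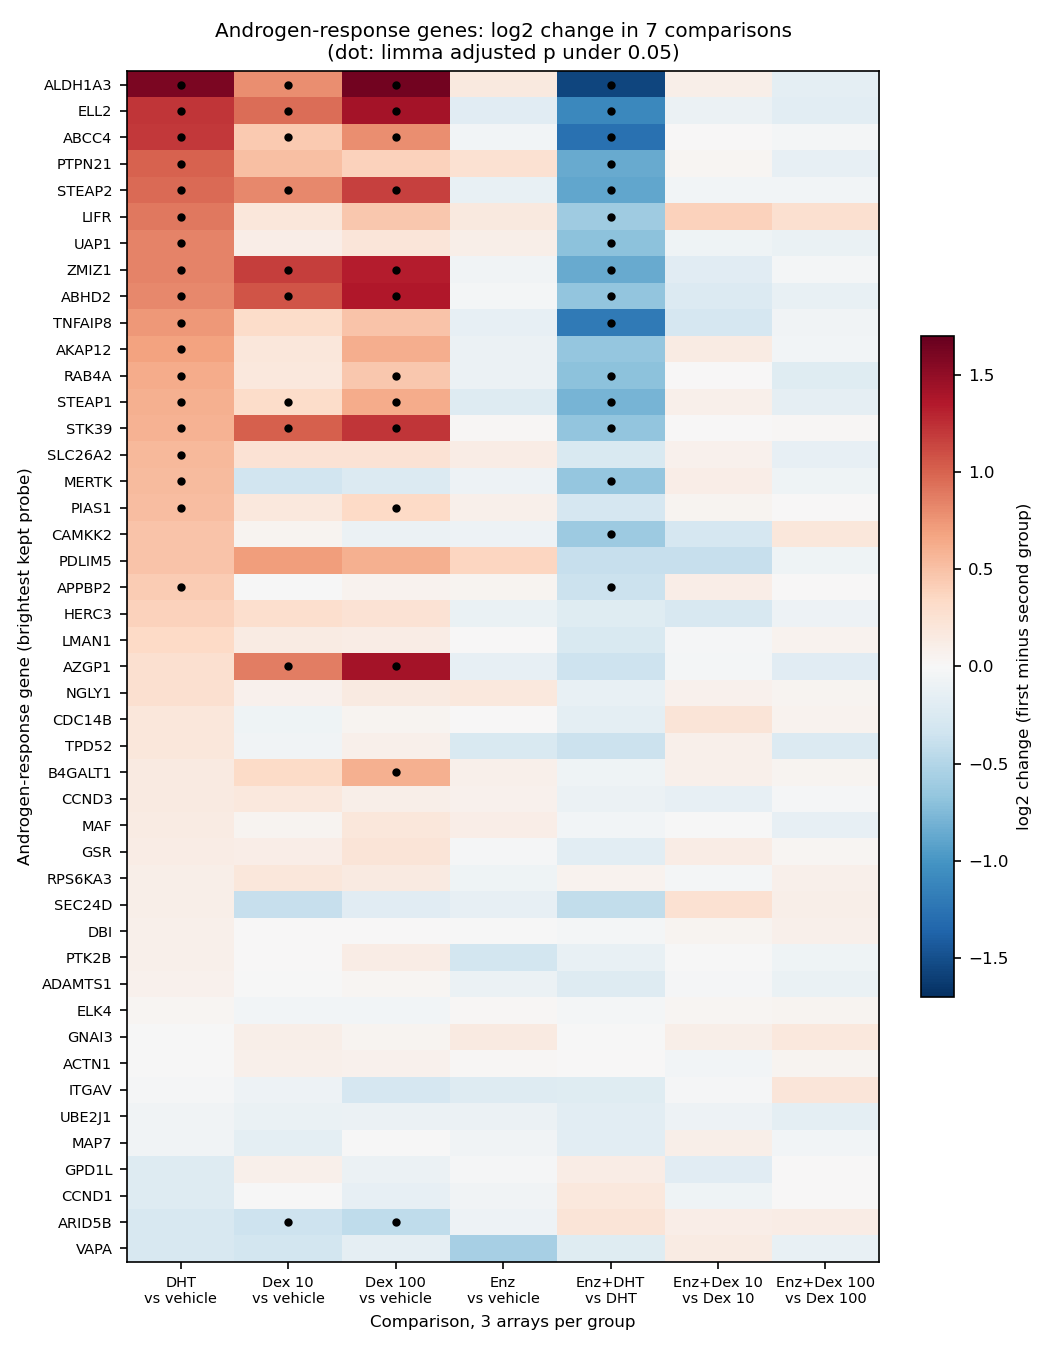
Log2 change of each measured androgen-response gene (rows, brightest passing probe) in 7 comparisons (columns, 3 arrays per group), with a dot where the limma adjusted p is under 0.05. The dots for DHT against vehicle mark 18 rises, those for enzalutamide plus DHT against DHT mark 16 falls, and the column for enzalutamide plus Dex 100 nM against Dex 100 nM holds none.

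Enzalutamide added to DHT lowered 16 of the 45 genes relative to DHT alone and raised none (background 2.50% lower, 1.22% higher), with a median change of -0.27 beside 0.01 over all genes. All arrays with both agents lay below all DHT arrays for 28 genes and above them for 2 (9.19% and 9.59% of all genes). Of the 18 genes that DHT raised, 15 were among the 16. The rises and falls share the DHT arrays, so these counts are not independent of one another. AKAP12, SLC26A2 and PIAS1 were not called, and CAMKK2 was called here without a called rise. AKAP12 changed by -0.66 (adjusted p 0.053) and was called under 3 alternative settings. It was detected on 3 of 3 DHT arrays and 0 of 3 with both agents. Enzalutamide plus DHT against enzalutamide alone gave no call among the 45 genes or among all genes (0%), and 7 of the 45 had an unadjusted p under 0.05 in limma, 5 of them higher, beside 3.32% of all genes. Changes of the 45 genes in that comparison ran from -0.33 to 0.31. Enzalutamide alone against vehicle called none of the 45 (background 0.0155%), with 5 at an unadjusted p under 0.05, 1 higher and 4 lower, beside 7.80% of all genes. VAPA, a protein of the endoplasmic reticulum membrane that tethers it to other organelles, had the lowest adjusted p of that comparison at 0.114; without vehicle replicate 1 it was called, at -0.68 (adjusted p 0.0311).

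With Dex the same inhibitor gave no call among these genes at either dose (0% of all genes called in both comparisons). At an unadjusted p under 0.05 in limma, 1 of the 45 was lower with enzalutamide plus Dex 100 nM than with Dex 100 nM, and 4 differed at 10 nM, 1 higher and 3 lower. Over all genes the shares at that unadjusted threshold were 8.14% at 100 nM and 6.98% at 10 nM. All changes at 100 nM lay between -0.23 and 0.28. Against enzalutamide alone, enzalutamide plus Dex 100 nM raised 11 genes and lowered none (background 2.23% higher, 1.18% lower), and enzalutamide plus Dex 10 nM raised 9 (background 0.892% higher, 0.186% lower). Without AKAP12, AZGP1 and HERC3, undetected on every vehicle array, these rises numbered 9 and 8 of 42 genes. Of the 12 genes that Dex 100 nM raised without the inhibitor, 10 were higher with it, the exceptions being RAB4A at an adjusted p of 0.0683 and PIAS1. All 9 that Dex 10 nM raised were higher with it as well. The difference between the effect of enzalutamide on Dex 100 nM and its effect on DHT, tested directly, was called for 11 genes, positive in each (background 1.22% positive, 0.403% negative).

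Among transport proteins all 4 measured genes were higher with DHT, 3 of 4 were higher with Dex 100 nM and 3 of 4 fell when enzalutamide was added to DHT. Over all genes 2.45% were higher with DHT, 2.88% higher with Dex 100 nM and 2.50% lower with enzalutamide on DHT. ABCC4, also known as MRP4, had log2 levels of 10.14, 10.01 and 10.10 with vehicle, 11.15, 11.38 and 11.34 with DHT and 10.86, 10.84 and 10.93 with Dex 100 nM. With enzalutamide plus DHT its levels were 9.99, 10.07 and 10.00, and with enzalutamide plus Dex 100 nM they were 10.86, 10.71 and 10.95. The DHT arrays lay above all others, the Dex 100 nM arrays lay between them and vehicle with or without the inhibitor, and the arrays with DHT and the inhibitor lay within the vehicle range or just below it. The rise was 2.31-fold with DHT (1.21 ± 0.10, adjusted p 1.16e-07) and 1.73-fold with Dex 100 nM (0.79 ± 0.10, adjusted p 3.18e-05), and the fall on adding enzalutamide to DHT was -1.27 ± 0.10 (adjusted p 5.68e-08). At Dex 10 nM ABCC4 rose 1.36-fold (adjusted p 0.0248), a call that ended when a vehicle array or Dex 10 nM replicate 1 or 2 was left out (adjusted p 0.055 to 0.111). Its other passing probe gave changes of 1.34 with DHT, 1.02 with Dex 100 nM and -1.17 for enzalutamide on DHT.

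STEAP2, a metalloreductase that reduces iron and copper at membranes, rose under both hormones. Its log2 levels were 9.95, 9.93 and 9.96 with vehicle, 10.75, 10.96 and 11 with DHT, and 10.99, 11.09 and 11.25 with Dex 100 nM. Adding enzalutamide gave 9.89, 10.05 and 10.12 with DHT and 10.90, 11.16 and 11.12 with Dex 100 nM. The DHT and inhibitor arrays were thus back beside vehicle, while the Dex arrays overlapped with those of Dex alone. The rises were 1.94-fold with DHT (adjusted p 9.8e-07) and 2.24-fold with Dex 100 nM (adjusted p 4.54e-08). The difference between both hormones was 0.21 ± 0.10 with a 95% interval of 0.01 to 0.41 and did not pass the adjustment (adjusted p 0.401).

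STEAP1, a related six-transmembrane protein of the prostate cell surface, rose 1.52-fold with DHT (0.60 ± 0.08, adjusted p 4.62e-05) and 1.55-fold with Dex 100 nM (0.63 ± 0.08, adjusted p 2.32e-05). Enzalutamide on DHT changed it by -0.79 ± 0.08 (adjusted p 1.2e-06). A second STEAP1 probe changed by 0.79 ± 0.07 with DHT and by -0.93 ± 0.07 with enzalutamide on DHT, while the dimmest probe, detected on all 24 arrays, gave -0.13 ± 0.17 and 0.26 ± 0.17, so the probes of STEAP1 disagree in sign. The Dex 10 nM rise of STEAP1 was 1.25-fold (adjusted p 0.0417) and was lost without vehicle replicate 1 or 2 or Dex 10 nM replicate 1 or 2 (adjusted p 0.134 to 0.169). SLC26A2, a sulphate transporter, rose 1.46-fold with DHT (0.55 ± 0.14, adjusted p 0.0302); this call was lost without vehicle replicate 1 or 3 or DHT replicate 1 or 2 (adjusted p 0.0571 to 0.181).

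**Figure D2:**
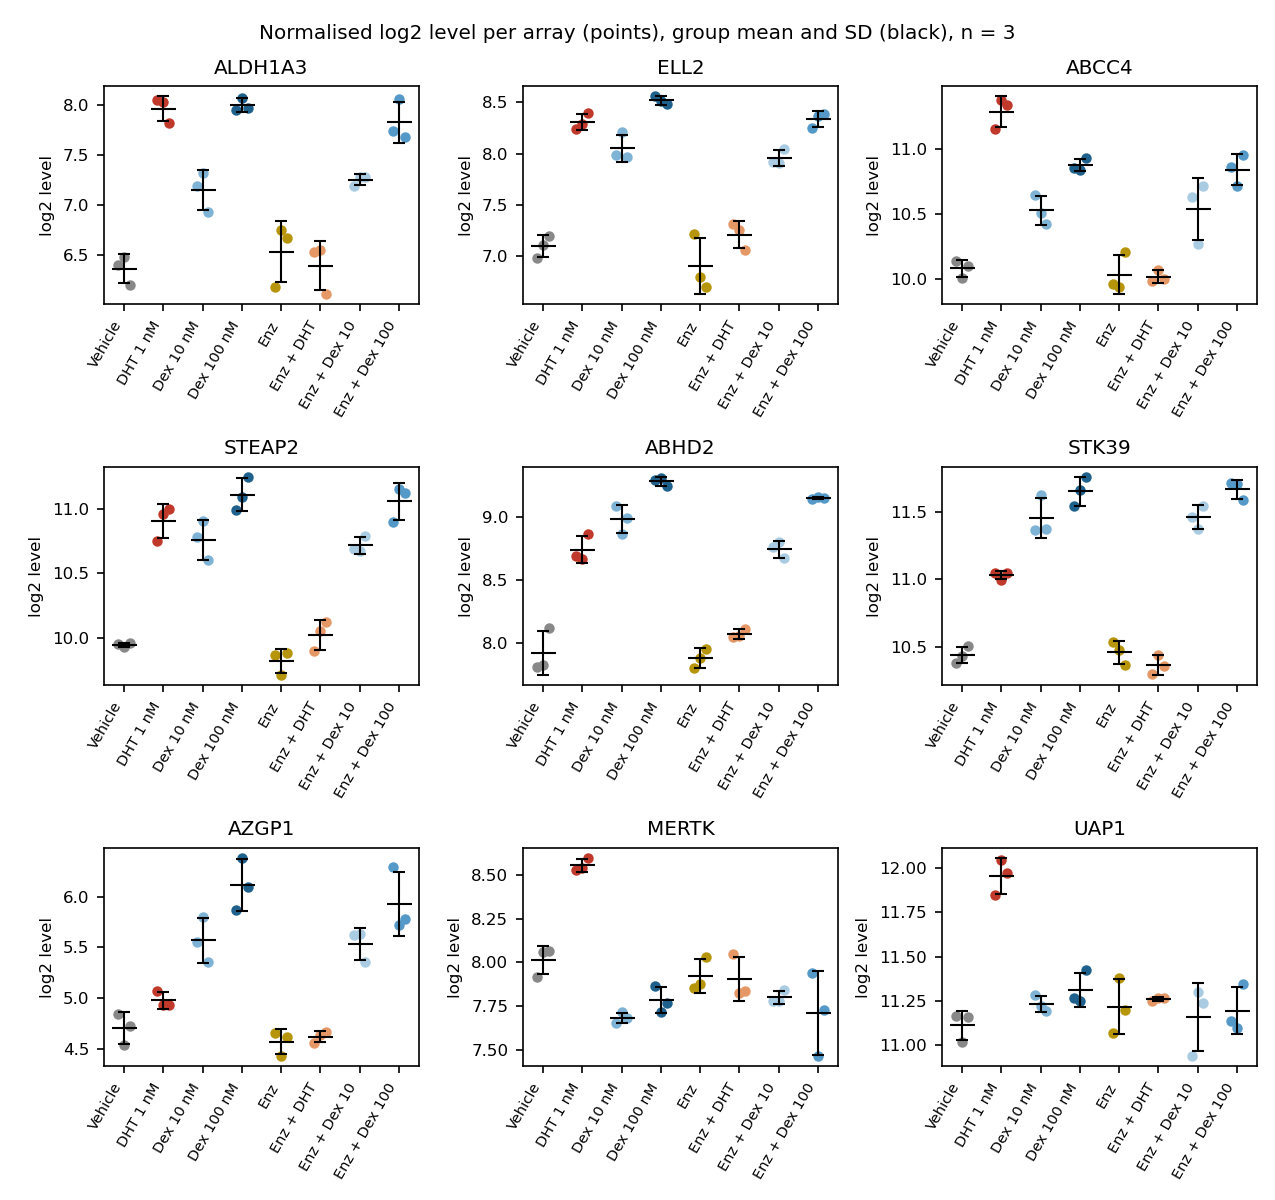
Normalised log2 level of selected androgen-response genes on each array (points) in the 8 treatment groups, with the group mean and SD in black (n = 3). In the ABCC4 and ALDH1A3 panels the DHT arrays lie above vehicle and the arrays with enzalutamide plus DHT overlap it, while the arrays with enzalutamide plus Dex 100 nM remain above those with enzalutamide alone.

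Among metabolic and sugar enzymes, 3 of 9 measured genes rose with DHT and 4 of 9 with Dex 100 nM, and 3 fell when enzalutamide was added to DHT. The shares of all genes were 2.45%, 2.88% and 2.50%. ALDH1A3, which oxidises retinaldehyde to retinoic acid, had the widest span of group means of all 45 genes, 1.63 on the log2 scale. Its log2 levels were 6.41, 6.48 and 6.20 with vehicle, 8.05, 8.03 and 7.82 with DHT, 7.20, 7.32 and 6.94 with Dex 10 nM, and 7.95, 8.07 and 7.97 with Dex 100 nM. Enzalutamide plus DHT gave 6.53, 6.55 and 6.12, and enzalutamide plus Dex 100 nM gave 7.74, 8.06 and 7.68. The vehicle arrays and those with the inhibitor and DHT overlapped, and the DHT and Dex 100 nM arrays overlapped at a level that no vehicle array reached. ALDH1A3 rose 3.03-fold with DHT (1.60 ± 0.15, adjusted p 2.76e-07) and 3.10-fold with Dex 100 nM (1.63 ± 0.15, adjusted p 1.58e-07), with a difference between the hormones of 0.04 and a 95% interval of -0.27 to 0.34. It was the only 1 of the 45 genes called between the Dex doses (background 0.582% higher, 0.0698% lower; 2 were called without Dex 10 nM replicate 2), at 1.80-fold higher with 100 nM (0.85 ± 0.15, adjusted p 0.00543). Its rise with enzalutamide plus Dex 10 nM over enzalutamide (0.72 ± 0.15, adjusted p 0.0117) was lost without enzalutamide replicate 1 or without replicate 2 or 3 of the combination (adjusted p 0.0501 to 0.0815).

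ABHD2, a hydrolase that acts on lipids, was higher with Dex than with DHT. Its log2 levels were 7.81, 7.83 and 8.12 with vehicle, 8.69, 8.67 and 8.86 with DHT, and 9.29, 9.31 and 9.24 with Dex 100 nM, 3 ranges that did not overlap. The rise was 1.77-fold with DHT (adjusted p 6.93e-07) and 2.57-fold with Dex 100 nM (adjusted p 3.11e-10), and the direct difference was 0.54 ± 0.08 (adjusted p 0.000248). UAP1, which makes the sugar donor UDP-N-acetylglucosamine, went the other way: its levels were 11.16, 11.02 and 11.16 with vehicle, 11.85, 12.05 and 11.97 with DHT, and 11.27, 11.25 and 11.42 with Dex 100 nM. The DHT arrays stood well clear of vehicle, and the Dex 100 nM arrays lay just above it. UAP1 rose 1.79-fold with DHT (0.84 ± 0.10, adjusted p 6.24e-06), was not called with Dex 100 nM (0.20 ± 0.10, adjusted p 0.306), and was lower with Dex 100 nM than with DHT (-0.64 ± 0.10, adjusted p 0.000306).

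AZGP1, a secreted zinc-binding glycoprotein linked to lipid mobilisation, was detected on 0 of 3 vehicle arrays, 1 of 3 DHT arrays and all 6 arrays with Dex alone. Its log2 levels were 4.85, 4.54 and 4.73 with vehicle, 5.07, 4.93 and 4.93 with DHT, 5.55, 5.80 and 5.36 with Dex 10 nM, and 5.87, 6.38 and 6.10 with Dex 100 nM. The Dex arrays did not overlap with the vehicle or DHT arrays, while the DHT and vehicle arrays lay close together without overlapping. Against vehicle it was at least 1.47-fold higher with Dex 10 nM (adjusted p 0.00173) and at least 2.15-fold higher with Dex 100 nM (adjusted p 1.57e-06), where the bound sets undetected signals at no less than the lowest detected one of their array. It was not called with DHT (0.27 ± 0.15, adjusted p 0.478), and was higher with Dex 100 nM than with DHT (adjusted p 5.47e-05), where the measured difference of 2.21-fold includes 2 DHT arrays on which it was not detected. With the inhibitor present it was at least 1.87-fold higher with Dex 100 nM than with enzalutamide alone (adjusted p 3.36e-06). B4GALT1, a galactosyltransferase of the Golgi, rose 1.52-fold with Dex 100 nM (0.60 ± 0.11, adjusted p 0.00135) and was not called with DHT (0.16 ± 0.11, adjusted p 0.645). Its direct Dex over DHT difference of 0.45 ± 0.11 (adjusted p 0.0293) did not pass once a DHT array or Dex 100 nM replicate 2 was left out (adjusted p 0.0587 to 0.184).

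Among 6 measured transcription factors and coregulators, DHT raised ELL2, ZMIZ1 and PIAS1, and Dex 100 nM raised the same 3 genes and lowered ARID5B. Over all genes 2.45% were higher with DHT, and 2.88% were higher and 2.19% lower with Dex 100 nM. ELL2 had log2 levels of 6.98, 7.11 and 7.20 with vehicle, 8.24, 8.29 and 8.39 with DHT, and 8.56, 8.51 and 8.48 with Dex 100 nM. Enzalutamide plus DHT gave 7.31, 7.26 and 7.06, and enzalutamide plus Dex 100 nM gave 8.25, 8.37 and 8.39. The arrays with the inhibitor and DHT overlapped with vehicle, and those with the inhibitor and Dex lay more than 1 log2 unit above it. ELL2 rose 2.32-fold with DHT (adjusted p 1.8e-07) and 2.68-fold with Dex 100 nM (adjusted p 1.46e-08), and enzalutamide changed it by -1.10 ± 0.11 on DHT (adjusted p 8.18e-07) and by -0.18 on Dex 100 nM (95% interval -0.41 to 0.04).

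ZMIZ1, a coactivator related to the PIAS family, had errors among the smallest of the responding genes. Its levels were 9.95, 9.96 and 9.95 with vehicle, 10.87, 10.68 and 10.83 with DHT, 11.10, 11.20 and 11.08 with Dex 10 nM, and 11.24, 11.30 and 11.31 with Dex 100 nM. The 4 ranges did not overlap and were ordered vehicle, DHT, Dex 10 nM, Dex 100 nM. The rise was 1.79-fold with DHT (0.84 ± 0.06, adjusted p 4.64e-09) and 2.51-fold with Dex 100 nM (1.33 ± 0.06, adjusted p 2.86e-12), and the hormones differed by 0.49 ± 0.06 (adjusted p 1.9e-05). PIAS1, a SUMO ligase, rose 1.45-fold with DHT (adjusted p 0.000864) and 1.27-fold with Dex 100 nM (adjusted p 0.033); the Dex call ended when a vehicle array or Dex 100 nM replicate 2 or 3 was left out (adjusted p 0.0509 to 0.196). ARID5B, a DNA-binding chromatin factor, was the 1 gene of the 45 called lower with a hormone: it fell 1.27-fold with Dex 10 nM (adjusted p 0.0217) and 1.35-fold with Dex 100 nM (-0.43 ± 0.08, adjusted p 0.00172), and its change with DHT was -0.27 ± 0.08 (adjusted p 0.061). With median scaling of the arrays in place of quantile normalization, Dex 10 nM gave 7 higher and 3 lower calls, where the median of all genes was itself shifted by -0.12. The 10 nM call of ARID5B was lost without vehicle replicate 3 or Dex 10 nM replicate 2 or 3 (adjusted p 0.0886 to 0.118). ELK4 and MAF were not called in either comparison.

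Receptors, kinases and signalling adaptors were the largest role group. Of 11 measured genes, 7 were called higher with DHT and 1 with Dex 100 nM (background 2.45% and 2.88% higher). With Dex 100 nM, 9 of the 11 changed upward. At an unadjusted p under 0.05 in limma, 5 were higher and 1 lower, beside 16.5% of all genes in either direction. The 7 called with DHT were PTPN21, LIFR, TNFAIP8, AKAP12, STK39, MERTK and APPBP2. In the direct test PTPN21, MERTK and APPBP2 were also lower with Dex 100 nM than with DHT, and STK39 was higher. STK39, also known as SPAK, which phosphorylates cation-chloride cotransporters, was the 1 raised by both. Its log2 levels were 10.38, 10.43 and 10.50 with vehicle, 11.05, 11 and 11.05 with DHT, and 11.54, 11.66 and 11.76 with Dex 100 nM, again 3 separate ranges. It rose 1.51-fold with DHT (adjusted p 4.26e-05) and 2.32-fold with Dex 100 nM (adjusted p 1.21e-09), and it was 1.54-fold higher with Dex 100 nM than with DHT (adjusted p 3.51e-05).

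MERTK, a receptor kinase for the ligand GAS6, had levels of 7.92, 8.06 and 8.06 with vehicle, 8.53, 8.54 and 8.60 with DHT, 7.86, 7.72 and 7.77 with Dex 100 nM, and 8.05, 7.83 and 7.83 with enzalutamide plus DHT. The DHT arrays were above all others and the Dex 100 nM arrays were below vehicle. MERTK rose 1.46-fold with DHT (0.54 ± 0.09, adjusted p 0.000792), changed by -0.23 ± 0.09 with Dex 100 nM (adjusted p 0.197), and was 1.71-fold lower with Dex 100 nM than with DHT (-0.77 ± 0.09, adjusted p 1.97e-05). Its second probe gave 0.58 with DHT and -0.01 with Dex 100 nM. Enzalutamide on DHT changed MERTK by -0.65 ± 0.09 (adjusted p 0.000114).

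PTPN21, a phosphatase of the cell cortex, had levels of 5.28, 5.61 and 5.38 with vehicle, 6.32, 6.48 and 6.50 with DHT, and 5.72, 5.68 and 6.04 with Dex 100 nM. The vehicle levels of PTPN21 lay near the lowest detected log2 signals, which ran from 4.97 to 5.11 across arrays. It rose 2.01-fold with DHT (1.01 ± 0.16, adjusted p 0.000268) and was not called with Dex 100 nM (0.39 ± 0.16, adjusted p 0.195). The direct difference of -0.62 ± 0.16 (adjusted p 0.0364) did not pass once a DHT array or Dex 100 nM replicate 1 or 2 was left out (adjusted p 0.0611 to 0.162). APPBP2, which binds the amyloid precursor protein and serves as a ubiquitin ligase receptor, had a small change with small errors. Its levels were 8.95, 8.94 and 8.92 with vehicle and 9.40, 9.36 and 9.37 with DHT, a 1.35-fold rise (adjusted p 5.2e-05), and it was lower with Dex 100 nM than with DHT (-0.38 ± 0.06, adjusted p 0.000415). A second APPBP2 probe, detected on 5 arrays, changed by 0.18 ± 0.16 when enzalutamide was added to DHT, against -0.37 ± 0.06 on the brightest probe.

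LIFR, the receptor for leukaemia inhibitory factor, had levels of 6.09, 6.23 and 6.06 with vehicle, 7.0, 6.93 and 7.16 with DHT, and 6.36, 6.18 and 6.73 with enzalutamide plus DHT. It rose 1.87-fold with DHT (0.90 ± 0.16, adjusted p 0.00133). Its fall with enzalutamide on DHT (-0.61 ± 0.16, adjusted p 0.039) did not pass once a DHT array or replicate 1 or 2 of the combination was left out (adjusted p 0.0634 to 0.214). With Dex 100 nM it was not called (0.46 ± 0.16, adjusted p 0.122), and neither was its difference between both hormones (-0.44 ± 0.16, adjusted p 0.233). CAMKK2, an upstream kinase of AMPK, had levels of 7.46, 7.36 and 7.12 with DHT and 6.82, 6.65 and 6.62 with enzalutamide plus DHT, a change of -0.62 ± 0.17 (adjusted p 0.0464). That call ended when DHT replicate 1 or 2 or an array of the combination was left out (adjusted p 0.0668 to 0.203), and the change with DHT itself was 0.49 ± 0.17 (adjusted p 0.142).

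The weakest calls with DHT were the dim genes TNFAIP8 and AKAP12. TNFAIP8, a regulator of apoptosis induced by tumour necrosis factor, rose 1.66-fold with DHT (0.73 ± 0.21, adjusted p 0.0496), but did not pass with 5 of the 6 arrays, whichever was left out (adjusted p 0.0656 to 0.240). Its fall when enzalutamide was added to DHT was -1.20 ± 0.21 (adjusted p 0.000949), from 6.04, 6.47 and 6.12 to 4.94, 5.31 and 4.78; on the latter arrays it was detected on 1 of 3. A second TNFAIP8 probe, detected on 3 arrays, changed by -0.09 with DHT and by 0.17 ± 0.20 with enzalutamide on DHT. AKAP12, a scaffold of protein kinase A, was detected on 0 of 3 vehicle arrays and 3 of 3 DHT arrays and was at least 1.28-fold higher with DHT (adjusted p 0.0391). Leaving out any of the 6 arrays ended this call too (adjusted p 0.052 to 0.160). In a fit of every passing probe, all 3 AKAP12 probes changed upward with DHT. Only 1 was called there, and it was not the brightest probe used here. With Dex 100 nM the measured change of AKAP12 over vehicle was 0.62 (adjusted p 0.0567), not called here but called under 3 alternative settings. With enzalutamide plus Dex 100 nM it was at least 1.18-fold higher than with enzalutamide alone (adjusted p 0.0465). That call ended when an enzalutamide array or replicate 1 or 3 of the combination was left out (adjusted p 0.0898 to 0.222).

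The secretory pathway, cell cycle and cytoskeleton groups had few calls, where 2.45% of all genes rose with DHT and 2.88% with Dex 100 nM. RAB4A, a GTPase of endosome recycling, was the 1 of 7 secretory and turnover genes raised: its levels were 8.25, 8.22 and 8.35 with vehicle, 9.02, 8.87 and 8.83 with DHT, and 8.58, 8.85 and 8.78 with Dex 100 nM. The rise was 1.55-fold with DHT (adjusted p 0.000429) and 1.38-fold with Dex 100 nM (adjusted p 0.009, or 0.0571 without Dex 100 nM replicate 2), and enzalutamide on DHT changed it by -0.69 ± 0.10 (adjusted p 0.000179). LMAN1, a cargo receptor between endoplasmic reticulum and Golgi, changed by 0.33 with DHT (adjusted p 0.141) and TPD52 by 0.19 (adjusted p 0.556), neither of them called. HERC3 was detected on 0 of 3 vehicle and 2 of 3 DHT arrays and was at least 1.18-fold higher with DHT, without a call (adjusted p 0.332). None of 3 measured cell cycle genes was called with DHT or Dex 100 nM: CCND1, cyclin D1, had levels of 11.57, 11.56 and 11.46 with vehicle and 11.34, 11.30 and 11.29 with DHT, ranges that did not overlap, with a change of -0.22 ± 0.07 (adjusted p 0.0804). None of 5 cytoskeleton and adhesion genes was called with either: PDLIM5, an adaptor of actin filaments, changed by 0.49 ± 0.20 with DHT (adjusted p 0.276), while ACTN1 and ITGAV changed by -0.01 and -0.03. In all, 23 of the 45 genes had no call in any of 13 comparisons, and ELK4 and DBI had the narrowest spans of group means (0.08 and 0.09). The vehicle levels of the 18 genes raised by DHT (median 8.14 on the log2 scale) and of the genes it did not call (median 7.92) overlapped, from 4.69 to 11.1 for the former and from 4.71 to 13.2 for the latter.

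**Figure D3:**
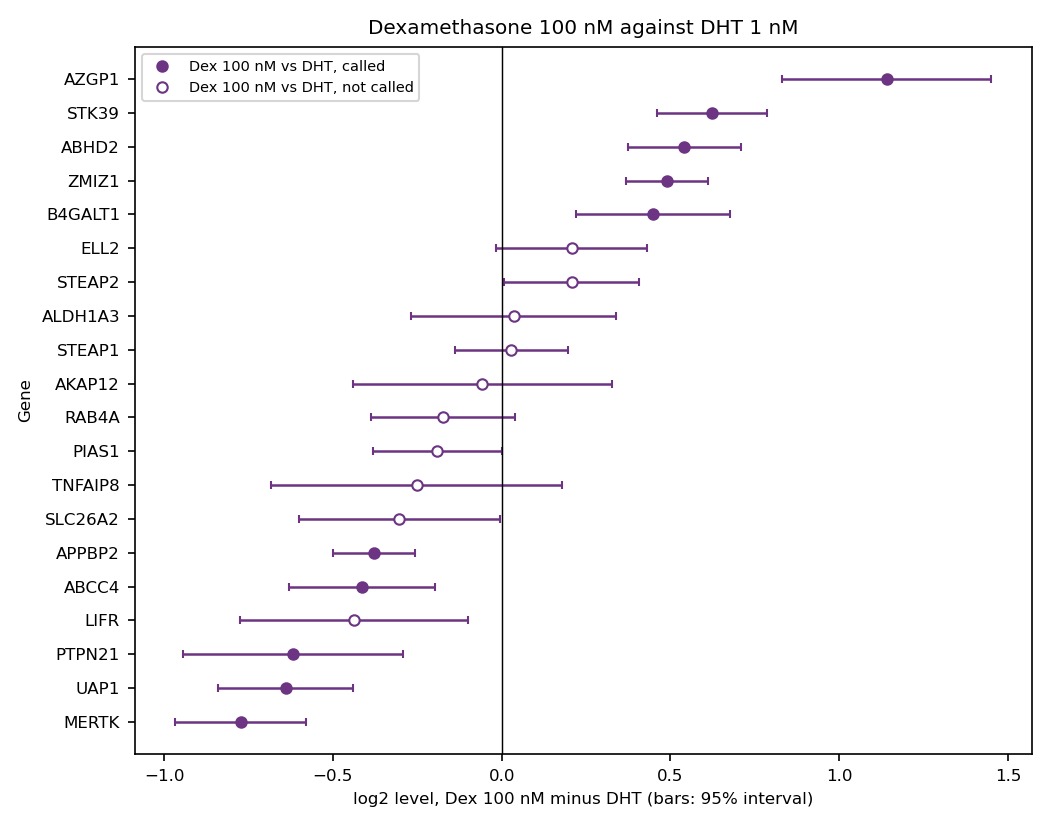
Log2 level with Dex 100 nM minus that with DHT (horizontal axis, bars are 95% intervals, 3 arrays per group) for the 20 androgen-response genes raised by either hormone; filled points are called. AZGP1, STK39, ABHD2, ZMIZ1 and B4GALT1 lie above 0, and MERTK, UAP1, PTPN21, ABCC4 and APPBP2 lie below it.

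Of the 18 genes raised by DHT and the 12 raised by Dex 100 nM, 10 were called with both, 8 with DHT alone and 2 with Dex 100 nM alone. The direct test between Dex 100 nM and DHT called 10 of the 45 genes (background 1.49% higher, 1.12% lower). Of the 42 genes detected on a vehicle array, 4 were called higher and 5 lower with Dex 100 nM. AZGP1, STK39, ABHD2, ZMIZ1 and B4GALT1 were higher with Dex 100 nM, and MERTK, UAP1, PTPN21, ABCC4 and APPBP2 were higher with DHT. The ABCC4 difference (-0.41 ± 0.10, adjusted p 0.034) did not pass once a Dex 100 nM array or DHT replicate 2 or 3 was left out (adjusted p 0.064 to 0.149). Of the genes called with both hormones but not in the direct test, STEAP1 differed by 0.03 (95% interval -0.14 to 0.20), RAB4A by -0.17 (-0.39 to 0.04) and ELL2 by 0.21 (-0.02 to 0.43). The other genes called with 1 hormone alone, LIFR, TNFAIP8, AKAP12 and SLC26A2, were not called in the direct test, so a difference between hormones was not shown for them.

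Promoters from RefSeq (GRCh38.p14) were read for receptor half-sites, over 250 bases before to 50 bases after each start. Of the 54 genes 45 had a promoter there. These are not the same 45 as the measured genes: ELL2 and ZMIZ1 are missing, and unmeasured genes such as IQGAP2 are included. The full element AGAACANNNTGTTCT was in 0 of the 81 promoters of these genes and in 1 of 35116 promoters in all (0.00285%). The half-site AGAACA, read on either strand, was in a promoter of 5 of 45 genes (11.1%), namely ACTN1, IQGAP2, LIFR, RPS6KA3 and STK39. Counted by promoter it was in 5 of the 81 (6.17%), beside 14.8% of all promoters. The 150 bases before the start are shown for AZGP1 and STK39, which were higher with Dex 100 nM than with DHT and of which STK39 holds a half-site, for MERTK, higher with DHT, and for LIFR, raised by DHT alone in the calls; where a gene has several promoters the one holding a half-site is shown. They were chosen after their values were seen, and capitals mark the half-site.
AZGP1 promoter, chr7:99976032-99976181 (- strand): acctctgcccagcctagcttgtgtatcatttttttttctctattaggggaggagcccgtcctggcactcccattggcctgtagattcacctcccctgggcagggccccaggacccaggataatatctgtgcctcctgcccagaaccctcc
STK39 promoter, chr2:168247596-168247745 (- strand): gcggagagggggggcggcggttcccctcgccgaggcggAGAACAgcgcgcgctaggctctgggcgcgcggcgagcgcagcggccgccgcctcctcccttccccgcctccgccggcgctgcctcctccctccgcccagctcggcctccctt
MERTK promoter, chr2:111898457-111898606 (+ strand): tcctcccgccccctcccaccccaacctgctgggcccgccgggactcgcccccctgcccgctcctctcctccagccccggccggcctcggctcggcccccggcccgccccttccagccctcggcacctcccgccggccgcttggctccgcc
LIFR promoter, chr5:38557468-38557617 (- strand): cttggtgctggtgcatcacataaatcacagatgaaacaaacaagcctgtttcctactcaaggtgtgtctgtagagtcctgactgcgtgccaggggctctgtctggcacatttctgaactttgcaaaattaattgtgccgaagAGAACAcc
The half-site of STK39 starts 112 bases before the gene's start and that of LIFR 8 bases before it. Whether the half-site bears on the response to either hormone was not tested. The absence of a match says only that these letters are not in the window.

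The effect of enzalutamide differed between the hormones for 11 genes. For ALDH1A3 the inhibitor changed the level by -1.57 ± 0.15 with DHT and by -0.17 with Dex 100 nM (95% interval -0.47 to 0.13), a difference of 1.40 ± 0.21 (adjusted p 0.000444). For ABCC4 the values were -1.27 ± 0.10 and -0.03 (-0.25 to 0.18), a difference of 1.24 ± 0.15 (adjusted p 2.79e-05). For ZMIZ1, the gene with the lowest adjusted p, they were -0.85 ± 0.06 and -0.03 (-0.15 to 0.09), a difference of 0.82 ± 0.08 (adjusted p 2.64e-06). In each of these 3 genes the arrays with enzalutamide and Dex 100 nM overlapped those with Dex 100 nM alone. For ELL2, STEAP1 and ABHD2, also among the 11, all arrays with enzalutamide and Dex 100 nM lay below all arrays with Dex 100 nM alone. Those changes were -0.18, -0.16 and -0.13, none of them called. TNFAIP8 and LIFR had differences of 1.14 ± 0.29 and 0.88 ± 0.23 that did not pass (adjusted p 0.0554 and 0.0589). Since the falls on DHT and these differences use the same DHT arrays, they are not separate evidence.

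**Figure D4:**
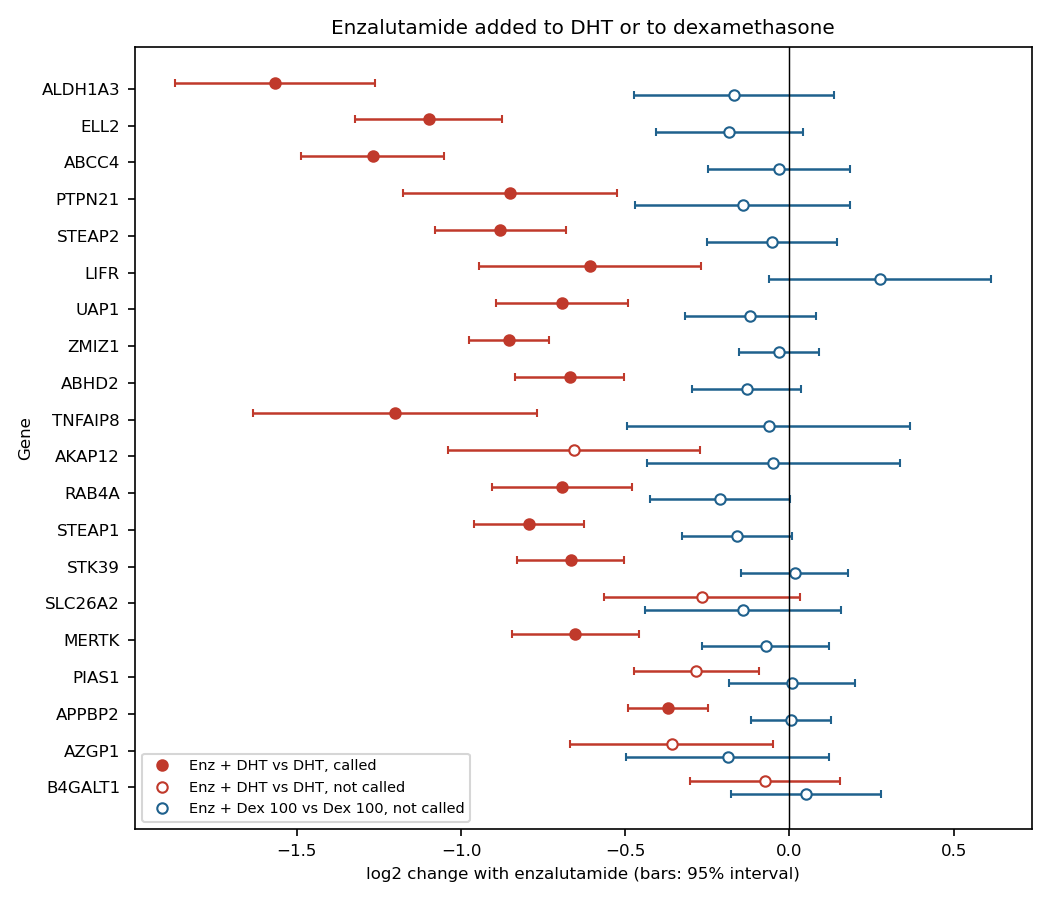
Log2 change on adding enzalutamide to DHT and to Dex 100 nM for the 20 androgen-response genes raised by either hormone (horizontal axis, bars are 95% intervals, 3 arrays per group; filled points are called). Values with DHT reach -1.57 for ALDH1A3, and values with Dex 100 nM lie between -0.21 and 0.28.

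A list of 43 further androgen-response genes, among them KLK2, TMPRSS2 and FKBP5, was counted the same way. Of 36 measured, DHT raised 12 and lowered 1, INSIG1, at -0.40 (background 2.45% higher, 1.81% lower). Dex 100 nM raised 10 and lowered none (background 2.88% higher, 2.19% lower). Enzalutamide on DHT lowered 11 and raised none (background 2.50% lower, 1.22% higher). The median change of these 36 genes with DHT was 0.13 beside 0.27 for the 45 genes. The changes past 2-fold with both hormones came in either order. TMPRSS2, a membrane serine protease, rose 4.93-fold with DHT and 2.59-fold with Dex 100 nM (adjusted p 9.01e-12 and 2.19e-08). KLK2, a kallikrein protease secreted by prostate cells, was not detected on any vehicle array and rose at least 3.47-fold with DHT and at least 2.49-fold with Dex 100 nM (adjusted p 1.53e-09 and 5.29e-08). PMEPA1 rose 5.20-fold and 2.99-fold, and NDRG1 4.09-fold and 2.29-fold. FKBP5, a cochaperone of steroid receptors, rose 2.73-fold with DHT and 4.24-fold with Dex 100 nM (adjusted p 2.42e-10 and 6.02e-13). SGK1, a kinase that regulates ion transport, rose by 3.46 ± 0.12 (SE) on the log2 scale with DHT and by 6.04 ± 0.12 with Dex 100 nM (adjusted p 8.42e-14 and 7.19e-18). Compared directly, Dex 100 nM gave lower levels than DHT of TMPRSS2, PMEPA1 and NDRG1 and higher levels of FKBP5 and SGK1 (adjusted p at most 0.00164), and KLK2 was not called.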

How the data were processed

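RNA from 24 cultures of LREX' cells was measured on Illumina beadchips. Each probe's mean signal intensity was deposited by the authors in unnormalized form, per the file headers. The deposited tables also give a detection p-value for every probe, per the file headers. The submitters' processing notes name GenomeStudio without a version. A second deposited table holds normalized intensity values with no method stated; they are linear, 29.4% to 29.6% of them lie below 0, array medians are 9.29 to 9.33, and their centring is unknown, so they served as an alternative only.

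Probe symbols came from the platform annotation (30113 of 47323 probes with 1 symbol, 8 with several, 17202 unnamed here), of which 30074 were matched by Entrez identifier to a RefSeq table, changing 0 symbols. Signals were corrected by normexp with parameters inferred from the detection p-values (offset 16), then quantile normalized and log2 transformed with limma 3.58.1 in R 4.3.3. A probe was kept if its detection p fell under 0.05 on 3 or more arrays (24607 probes), and the brightest kept probe stood for a gene (12895 genes). All 24 arrays were fitted with 8 group means (lmFit and eBayes), and 13 comparisons were made, each with Benjamini-Hochberg adjustment over all genes. The procedure was run on simulated data with changes planted only in bright probes of the DHT arrays. That simulation does not cover dim genes or the difference of enzalutamide effects. A gene undetected on all arrays of a group has a bound: the bright group's mean against, per array of the dim group, its own signal or the lowest detected one, whichever is higher. With 3 arrays per group, array number limits the precision; over all genes the standard error of a log2 difference had a median of 0.12.

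Members and gene lists were chosen with earlier results of these data known. Named with values are called members (up to 15 rises and 10 falls in the main comparisons, up to 8 each way in the others), members with disagreeing probes and up to 4 others per role group. Alternatives were an offset of 50, median scaling, no filter, detection p under 0.01, every probe tested, fits of only the groups compared, the deposited normalized table, a replicate block by title number, and leaving out each array.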

Additional observations from a re-analysis of the deposited data

Results flagged for a closer look

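For 11 genes the effect of enzalutamide differed between cultures with Dex 100 nM and cultures with DHT, by a direct test of that difference in the limma fit (3 arrays in each of 4 groups, adjusted over all genes). Each value is the log2 effect on Dex 100 nM minus the log2 effect on DHT, and it is positive where enzalutamide lowered the gene more with DHT. The widest difference was for the retinaldehyde dehydrogenase ALDH1A3, at 1.40, followed by the exporter ABCC4 at 1.24 and the elongation factor ELL2 at 0.92. STEAP2 differed by 0.83, the coactivator ZMIZ1 by 0.82, the kinase STK39 by 0.68 and STEAP1 by 0.64. MERTK differed by 0.58 (adjusted p 0.0241), UAP1 by 0.57 (adjusted p 0.0335), ABHD2 by 0.54 and APPBP2 by 0.38 (adjusted p 0.0206).

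Of these, 8 were raised by both hormones, while MERTK, UAP1 and APPBP2 were called with DHT and not with Dex 100 nM, so for those 3 there was no called Dex effect for enzalutamide to alter. The MERTK call was lost in 7 of 12 fits that left out 1 array (without DHT replicate 3, Dex 100 nM replicate 2 or 3, enzalutamide plus DHT replicate 2 or 3, or enzalutamide plus Dex 100 nM replicate 1 or 3; adjusted p 0.0556 to 0.0742). The UAP1 call was lost in 8 of 12 (without DHT replicate 2 or 3, Dex 100 nM replicate 1 or 2, any 1 array of enzalutamide plus DHT, or enzalutamide plus Dex 100 nM replicate 3; adjusted p 0.0679 to 0.101). The APPBP2 call was lost in 5 of 12 (without DHT replicate 1, Dex 100 nM replicate 1 or 3, or replicate 3 of either combination; adjusted p 0.0557 to 0.064).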

How the results depend on the processing

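Of 99 calls of a gene in a comparison, none changed sign under the 7 alternatives or with 1 array left out. At least 1 of the 7 alternatives ended 28 of them and leaving out an array ended 19. Fitting only the groups compared, which leaves fewer arrays for the spread, ended 23, median scaling ended 15, testing every probe 12, no detection filter 7, while 2 were ended by an offset of 50 and 2 by the authors' normalized values. Genes called between Dex 100 nM and DHT numbered 5 with only the groups compared. Those called between the Dex doses numbered 2 with an offset of 50, 2 with detection p under 0.01 and 0 with only the groups compared. The difference of enzalutamide effects was called for 6 genes with median scaling, where those for ABHD2, STEAP1, MERTK, UAP1 and APPBP2 were lost; the cause was not tested. Median scaling shifted the median of all genes by -0.12 for Dex 10 nM and by 0.11 for enzalutamide on Dex 10 nM.

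With 1 array left out, DHT gave 15 to 17 calls, Dex 10 nM 7 to 9, Dex 100 nM 11 to 13, and enzalutamide on DHT 14 to 16. Enzalutamide plus Dex over enzalutamide gave 7 to 9 at 10 nM and 10 to 11 at 100 nM. Dex 100 nM against DHT gave 7 to 9 calls, the Dex doses 1 to 2, and the difference of enzalutamide effects 8 to 11. Enzalutamide against vehicle gave 0 to 1, the 1 being VAPA without vehicle replicate 1. Enzalutamide on either Dex dose and enzalutamide plus DHT over enzalutamide stayed at 0. The ABCC4 rise with enzalutamide plus Dex 10 nM over enzalutamide (adjusted p 0.0134) was lost without enzalutamide replicate 1 or 2 or replicate 1 or 3 of the combination (adjusted p 0.075 to 0.103). The titles carry running numbers that fall into 3 sets of 8 arrays, 1 per treatment, and no label says what a set is. Deviations from the group means correlated over all genes at -0.04 to 0.24 (median 0.09) for 84 pairs of arrays of the same set, over 0.1 in 35 of them. For 168 pairs from different sets the median was -0.03, with 3 over 0.1. Within set 2, by title number, the highest correlation was 0.0999. Of 24 arrays, 20 were closest on average to their own set, a hint from the data and not from the design. With the set as a replicate block, chosen after seeing the data, DHT gave 20 calls (19 higher, 1 lower), Dex 10 nM 10, Dex 100 nM 13, enzalutamide on DHT 17, and the difference of enzalutamide effects 13. Of the 99 calls, 1 was lost, TNFAIP8 with DHT (adjusted p 0.0594). A fit with the slide as a block was not run because the files used here name no slide. Signal near background limits AKAP12, AZGP1, HERC3 and TNFAIP8, and also PTPN21 and MAF, although these last were detected on all 24 arrays.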
